A study of Mus musculus with 2 samples.

Results

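The 10 genes of class I antigen processing and the immunoproteasome were examined in inflammation-experienced regulatory T cells of the mouse. They were chosen by name, and all 10 were matched by symbol among 55450 named genes of the deposited gene tables. They are Psmb8, Psmb9 and Psmb10 (catalytic subunits of the immunoproteasome), Psme1 and Psme2 (the proteasome activator PA28), Tap1, Tap2 and Tapbp (peptide transport and loading), Erap1 (a peptide-trimming aminopeptidase) and Nlrc5 (a transcriptional regulator of class I genes). The cells came from an adult male mouse, 6 months old, of the strain Foxp3CreERT2 x Rosa26YFP. In such a strain a tamoxifen-dependent Cre recombinase is driven by Foxp3, the gene that defines regulatory T cells, and YFP is a reporter at the Rosa26 locus. The labels call the cells primary cells and give bone marrow hematopoietic cells as their origin. All samples belonged to 1 group and 1 biological replicate, from whose polyadenylated RNA, sheared to 100 to 300 bp, 2 technical libraries were sequenced. No control cells were analysed here, so levels are described and no change with inflammation is measured. How the inflammation was produced was not given in the sources used here.

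As background, nucleated cells cut cytosolic proteins with the proteasome, carry the peptides into the endoplasmic reticulum through the TAP transporter, trim them and load them onto class I molecules for display to CD8 T cells. Interferon-gamma is the best known inducer of this pathway. It replaces the constitutive catalytic subunits of newly built proteasomes by immunoproteasome subunits, and lymphocytes also carry immunoproteasomes without such a stimulus. NLRC5 has no DNA-binding domain of its own and reaches class I promoters through RFX, CREB and NF-Y factors bound to conserved boxes.

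The technical libraries held 15376680 counts in technical replicate 1 and 13596020 in technical replicate 2 over named genes, of which 0.303% and 0.306% fell in the 10 genes. Levels are in TPM (a relative transcript abundance that is scaled by transcript length and to the same total in each library), and ± is the SD over these 2 libraries (n = 2), which is technical and does not cover the variation between animals. The cell label was checked against marker genes: 7 of 7 T cell markers and 6 of 6 regulatory T cell markers reached 1 TPM in both libraries, with Foxp3 at 22.05 and 17.90 TPM in technical replicates 1 and 2. Of the markers of other cells, 1 of 5 for B cells (Cd79b), 0 of 6 for dendritic cells, 1 of 8 for monocytes and macrophages (Cd68), 0 of 4 for neutrophils, 0 of 3 for NK cells and 2 of 2 for CD8 T cells (Cd8a and Cd8b1) did so. Their summed levels in technical replicates 1 and 2 were 39.8 and 32.2 TPM for B cells, 0.75 and 0.82 TPM for dendritic cells, 6.45 and 4.64 TPM for monocytes and macrophages, 0.52 and 0.58 TPM for neutrophils, 0.50 and 0.89 TPM for NK cells and 13.96 and 13.37 TPM for CD8 T cells. The regulatory T cell markers summed to 2339 and 2258 TPM. Itgax, Cd209a, Adgre1, Ncr1 and Klre1 had an estimated count of 0 in both libraries of this table. The part of other cells in the levels below was not tested.

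Of the 10 genes, 4 lie side by side on chromosome 17 (GRCm38/mm10, GENCODE M21 annotation), within the major histocompatibility complex. Psmb9 runs on the minus strand at chr17:34181987-34187764, and Tap1 (chr17:34187553-34197225), Psmb8 (chr17:34197721-34201454) and Tap2 (chr17:34203527-34216321) follow on the plus strand. The exons of Psmb9 and Tap1 overlap by 212 nt on opposite strands. Tapbp lies on the plus strand of the same chromosome at chr17:33915899-33929292. Elsewhere, Psme1 (chr14:55578123-55581529, plus strand) and Psme2 (chr14:55587441-55591113, minus strand) lie close together, Psmb10 is at chr8:105935735-105938444 on the minus strand, Nlrc5 at chr8:94434356-94527272 on the plus strand and Erap1 at chr13:74639568-74693201 on the plus strand.

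**Figure D1:**
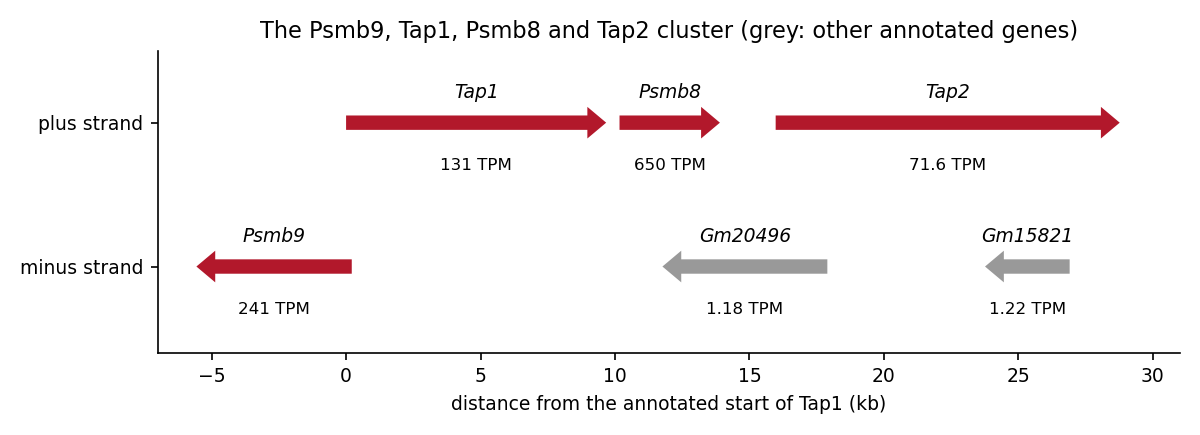
Map of the annotated genes from Psmb9 to Tap2 by distance from the annotated start of Tap1 (x axis, kb), with arrows pointing in the direction of transcription (upper row plus strand, lower row minus strand), red for the member genes and grey for other annotated genes, and the mean TPM of 2 technical libraries under each. Psmb9 and Tap1 point away from each other with overlapping ends, and the grey genes sit at 1.18 and 1.22 TPM against 71.6 to 650 TPM for the red ones.

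Promoter windows of 300 bases, from 250 bases before to 50 after the start site, were held by the RefSeq table (GRCm38.p6) for 8 of the 10 genes (no window for Tap2 and Nlrc5). The RefSeq starts of all 8 lie inside the genes as GENCODE M21 draws them. By RefSeq the start sites of Tap1 and Psmb9 lie 226 bases apart, whereas the GENCODE genes overlap at their starts. The RefSeq windows of these genes share 275 bases. The window of Tap1 at chr17:34187306-34187605, plus strand, is shown because it holds the letters of 2 of the class I promoter boxes, in capitals: the Y box (CCAAT) at -222 and the X2 box (TGACG) at -86 from the Tap1 start site.

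Tap1: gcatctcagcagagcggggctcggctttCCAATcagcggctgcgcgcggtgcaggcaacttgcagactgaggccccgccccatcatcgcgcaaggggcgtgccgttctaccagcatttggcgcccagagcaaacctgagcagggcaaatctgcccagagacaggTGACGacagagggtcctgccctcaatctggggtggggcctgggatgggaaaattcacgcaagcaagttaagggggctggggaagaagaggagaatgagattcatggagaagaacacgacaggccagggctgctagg

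The same letters are met on the other strand in the Psmb9 window, the X2 box at -144 and the Y box at -8 from the Psmb9 start site. Interferon-related letters are shown for 3 further genes. Psmb8 (chr17:34197945-34198244, plus strand) holds a gamma-activated site (GAS, TTCNNNGAA) at -97, in capitals. This window belongs to the RefSeq start at position 34198195. GENCODE M21 starts Psmb8-203, the leading Psmb8 transcript by TPM, at position 34197721, so this GAS lies downstream of that start. Psme1 (chr14:55578244-55578543, plus strand) and Erap1 (chr13:74639603-74639902, plus strand) hold pairs of interferon response half-sites (GAAANNGAA, here on the opposite strand), in capitals: at 10 in Psme1, and overlapping each other at -9 and -3 in Erap1. The leading transcripts Psme1-208 and Erap1-201 start at positions 55578360 and 74639568 in GENCODE M21. These pairs therefore also lie downstream of the starts of the leading transcripts.

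Psmb8: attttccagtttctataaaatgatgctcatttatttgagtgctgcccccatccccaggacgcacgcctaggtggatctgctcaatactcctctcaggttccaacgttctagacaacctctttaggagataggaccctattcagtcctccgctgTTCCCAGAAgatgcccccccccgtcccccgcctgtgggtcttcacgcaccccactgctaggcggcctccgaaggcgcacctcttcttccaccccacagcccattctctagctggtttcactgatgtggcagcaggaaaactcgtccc

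Psme1: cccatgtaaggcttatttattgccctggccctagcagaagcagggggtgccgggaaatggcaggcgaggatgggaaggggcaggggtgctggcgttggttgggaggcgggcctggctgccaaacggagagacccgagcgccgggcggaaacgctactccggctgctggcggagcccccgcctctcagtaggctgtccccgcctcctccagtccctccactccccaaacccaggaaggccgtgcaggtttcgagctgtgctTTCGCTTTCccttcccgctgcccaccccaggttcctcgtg

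Erap1: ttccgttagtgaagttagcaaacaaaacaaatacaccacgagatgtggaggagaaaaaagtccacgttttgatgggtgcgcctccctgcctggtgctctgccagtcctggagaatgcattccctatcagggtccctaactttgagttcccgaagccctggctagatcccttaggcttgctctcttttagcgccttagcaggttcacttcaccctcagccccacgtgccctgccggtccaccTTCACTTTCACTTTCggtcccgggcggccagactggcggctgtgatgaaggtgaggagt

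These letters were searched on both strands and are common in promoters at large. Of all 32851 windows of the table, 8.30% held the GAS and 8.56% the half-site pair, against 1 of 8 (Psmb8) and 2 of 8 (Psme1 and Erap1) of the members' genes. The Y box letters stood in 37.4% of all windows and in those of Tap1, Tapbp and Psmb9. The X2 box letters stood in 20.8% of all windows and in those of Tap1, Psmb9 and Psme2. The GC box (GGGCGG) stood in 35.7% of all windows and in 6 of 8, all but Psmb8 and Psmb10. For the Y box, X2 box and GC box, Tap1 and Psmb9 hold the same sites in the bases their windows share, so these are counted for both genes. The NF-kappaB consensus was met in 8.46% of all windows and in 0 of 8. A match of letters is a description of the sequence and does not show that a factor binds.

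All 10 genes were detected, that is, at 1 TPM or more in both libraries, as were 13502 of the named genes. Their median level was 253.2 ± 9.61 TPM, with library medians of 260.0 TPM in technical replicate 1, against 246.4 TPM in technical replicate 2. The median over the detected genes was 13.45 TPM, and over the 10279 detected protein-coding genes it was 18.3 TPM. Of the 10 genes, 8 stood above the 90th percentile of these detected protein-coding genes. The range ran from 70.0 ± 2.43 TPM for Erap1 to 650.3 ± 39.7 TPM for Psmb8, 9.29-fold.

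**Figure D2:**
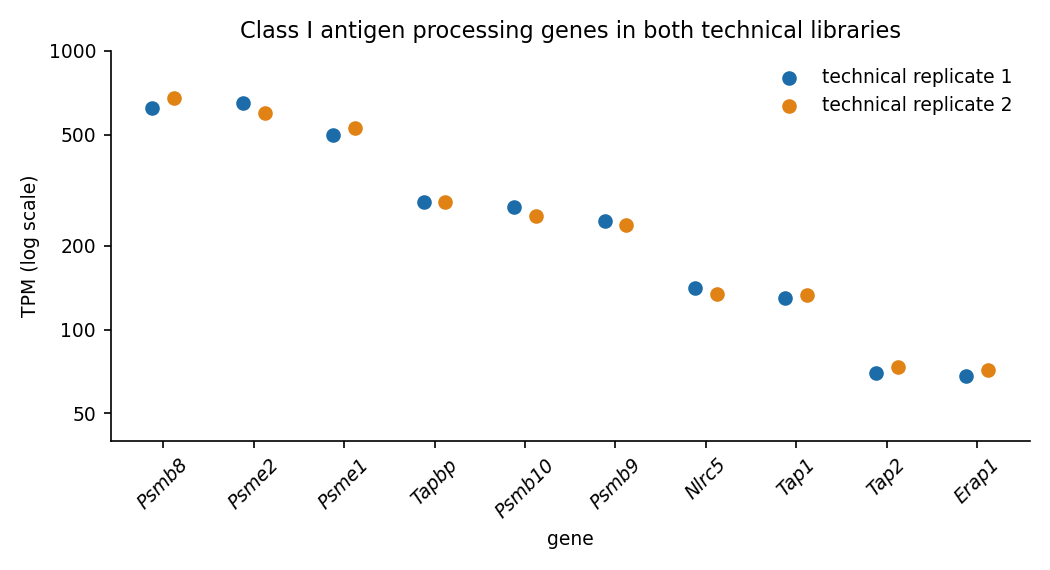
TPM (y axis, log scale) of each of the 10 genes (x axis, ordered by mean level) in technical replicate 1 (blue) and technical replicate 2 (orange). Psmb8, Psme2 and Psme1 lie near 500 TPM and above, Tap2 and Erap1 lie near 70 TPM, and the libraries sit close together for every gene.

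Psmb8, which encodes the chymotrypsin-like subunit beta5i (LMP7), had the highest mean gene-level TPM of the 10 genes. It had 622.3 TPM in technical replicate 1, against 678.4 TPM in technical replicate 2, from estimated counts of 7565 and 7089. Psmb10, which encodes beta2i (MECL-1), had 274.4 and 255.3 TPM from 2992 and 2430 counts. Psmb9, which encodes beta1i (LMP2), had 245.5 and 237.4 TPM from 3233 and 2781 counts. Psmb8 was thus 2.46 ± 0.28 times as high as Psmb10 and 2.70 ± 0.23 times as high as Psmb9 by TPM. Over protein-coding transcripts alone these ratios were 3.73 ± 0.83 and 5.19 ± 1.35.

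Each immunoproteasome subunit takes the place of a constitutive one in the 20S core. Psmb8 exceeded its partner Psmb5 (97.9 and 107.4 TPM in technical replicates 1 and 2) by a TPM ratio of 6.34 ± 0.027. Of the 50-nt stretches of Psmb5, 54.1% stand on the same strand in other genes, most of them in the pseudogene Gm3375, which was assigned 1.40 and 0.56 TPM in technical replicates 1 and 2, so the level of Psmb5 and this ratio are uncertain. Psmb10 exceeded Psmb7 (66.5 and 66.1 TPM) by a ratio of 3.997 ± 0.19. Psmb9 did not exceed Psmb6 (280.1 and 272.6 TPM), with a ratio of 0.874 ± 0.0040, below 1 in both libraries. By estimated counts, which are not divided by transcript length, the ratio of Psmb9 to Psmb6 was 1.24, so its side of 1 depended on the unit. The 3 immunoproteasome subunits summed to 1157 ± 20.5 TPM and the 3 constitutive ones to 445.3 ± 1.12 TPM, so that the immunoproteasome took 72.2% ± 0.30 of the TPM of the 6 genes. Psmb11, the catalytic subunit of the thymoproteasome of cortical thymic epithelium, had 1 count in each library (0.02 TPM).

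The gene-level sums include transcripts that are not annotated as protein coding, and these weighed more on the immunoproteasome side. Psmb8 had 352.8 and 406.9 TPM in protein-coding transcripts in technical replicates 1 and 2, Psmb9 had 83.4 and 66.2 TPM and Psmb10 had 112.5 and 94.3 TPM. Psmb5 had 97.9 and 107.4 TPM, Psmb6 had 243.7 and 242.6 TPM and Psmb7 had 65.2 and 64.8 TPM. Counting protein-coding transcripts alone, the ratios were 3.70 ± 0.13 for Psmb8 over Psmb5, 1.59 ± 0.19 for Psmb10 over Psmb7 and 0.308 ± 0.049 for Psmb9 over Psmb6. The sums were then 558.0 ± 13.2 TPM for the immunoproteasome subunits and 410.8 ± 5.65 TPM for the constitutive subunits, an immunoproteasome share of 57.6% ± 0.24. Psmb8 and Psmb10 remained above their partners and Psmb9 below its own in both libraries on either count of TPM.

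**Figure D3:**
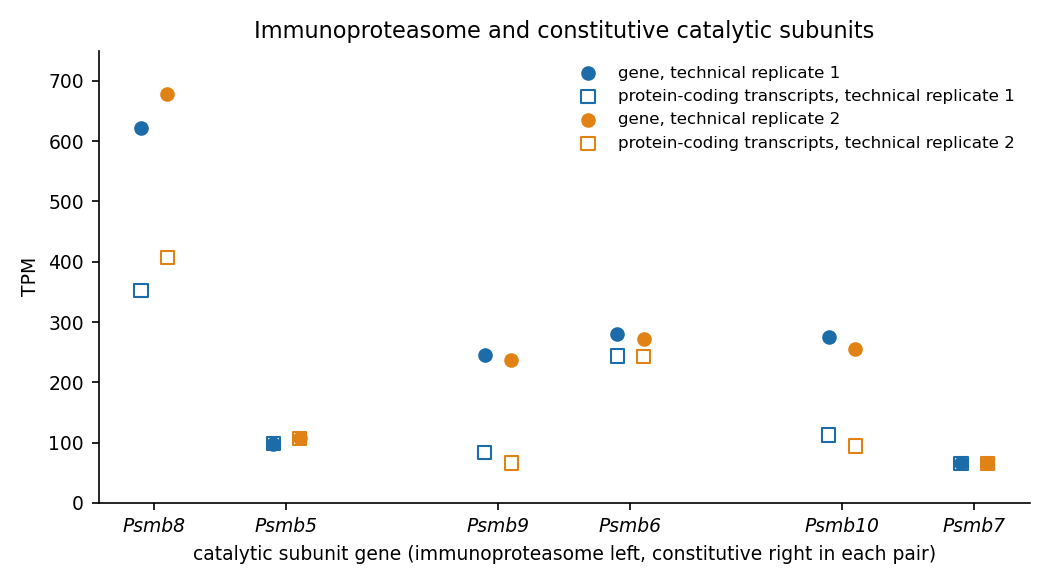
TPM (y axis) of the immunoproteasome catalytic subunits (left in each pair) and their constitutive partners (right in each pair) in technical replicate 1 (blue) and technical replicate 2 (orange), as filled circles for the gene and open squares for its protein-coding transcripts. Circles and squares lie far apart for Psmb8, Psmb9 and Psmb10 and close together for Psmb5, Psmb6 and Psmb7, and only in the middle pair is the constitutive gene the higher one.

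The other 11 structural subunits of the 20S core, which both forms share, were all detected, from 121.6 TPM (Psma5) to 353.3 TPM (Psmb3) with a median of 198.4 ± 8.29 TPM. By gene-level TPM Psmb8 lay above all of them, and Psmb9 and Psmb10 lay within their range. In protein-coding transcripts alone Psmb9 and Psmb10 averaged 74.8 and 103.4 TPM, below the gene level of Psma5. Psmb8 averaged 379.9 TPM there, with 352.8 TPM in technical replicate 1 against 353.8 TPM for Psmb3. The structural subunits were not split by transcript type, so these are unlike measures. The 5 assembly factors had a median of 38.1 ± 2.65 TPM and were led by Pomp at 360.6 TPM, a maturation factor known to favour the assembly of immunoproteasomes.

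Psme1 and Psme2 encode PA28alpha and PA28beta, which form the ring that caps the 20S core and are induced by interferon-gamma. Psme2 had 647.1 TPM in technical replicate 1, against 596.9 TPM in technical replicate 2, and Psme1 had 496.7 and 527.9 TPM. Psme1 was below Psme2 in both libraries by TPM, with a ratio of 0.826 ± 0.083, and above it by estimated counts, with a ratio of 1.20. Over protein-coding transcripts alone the ratio was 1.02 ± 0.056. The other activators of the 20S core were far lower, with means of 21.7 TPM for Psme3 (PA28gamma) and 20.6 TPM for Psme4 (PA200).

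The count of Psme2 is uncertain, because a near-identical copy, Psme2b, lies on chromosome 11 (chr11:48945354-48946190, minus strand). Of the 50-nt stretches in the transcripts of Psme2, 28.3% also stand in Psme2b on the same strand. The Psme2 coding sequence compared with it is 693 bases long and aligns at an offset of 24 within the 717 bases of Psme2b. Coding sequences of other Psme2 transcripts were not compared. The compared sequences differ most at the start of that of Psme2. Its first 60 bases are shown beside the bases of Psme2b that align to them (GENCODE M21 transcripts), with differing bases in capitals.

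Psme2: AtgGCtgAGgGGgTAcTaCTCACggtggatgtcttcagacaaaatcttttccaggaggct
Psme2b: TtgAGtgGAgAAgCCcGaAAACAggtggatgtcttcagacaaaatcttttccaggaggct

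The first 23 bases hold 15 differences, and the 633 bases after the stretch hold 5. In a RefSeq promoter window of Psme2, those 23 bases are followed by ggttggtgg, where the coding sequence has ggtggatgt. An exon therefore ends near there. Whether the 15 differences separate the genes, or only this transcript from others of Psme2, was not tested. Over the compared Psme2 coding sequence of 693 bases, 97.1% were identical with those 15 differences counted. Of its 644 windows of 50 bases, 417 held no difference. Psme2b itself was assigned 192.9 and 205.3 TPM in technical replicates 1 and 2. With Psme2 and Psme2b summed, the ratio of Psme1 to them was 0.625. The estimate of the Psme2 count carried the largest relative posterior SD of the 10 genes, 1.13% and 1.39%. Its estimated count was 10.4 and 8.85 times its whole-number count in a second, smaller gene table that the authors deposited, against a median of 2.32 over 9923 genes. Over the 10 genes this ratio ran down to 1.73 and 1.79 for Tap2, with Psmb8 at 4.72 and 4.44. Such an excess was not particular to Psme2: B2m had 63984 estimated against 891 whole-number counts in technical replicate 1. The cause of the excess was not tested. For Psme1 the share of 50-nt stretches found on the same strand in other genes was 5.47%, for Tapbp it was 2.87%, and for the other 7 genes it was under 1%. On the opposite strand, 20.3% of the stretches of Tapbp stood in Gm19412, 11.6% of those of Psmb8 in Gm20496, 10.7% of those of Erap1 in Cast, 9.22% of those of Tap2 in Gm15821 and 4.19% of those of Psmb9 in Tap1. Gm19412, Gm20496 and Gm15821 were each under 1.5 TPM in both libraries.

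Tap1 and Tap2 encode the partner chains of the transporter that moves peptides into the endoplasmic reticulum. Tap1 had 129.3 TPM in technical replicate 1, against 132.6 TPM in technical replicate 2, from 4413 and 4101 counts. Tap2 had 70.0 and 73.2 TPM, from 1868 and 1657 counts. Tap1 was 1.83 ± 0.026 times as high as Tap2 by TPM, and by protein-coding transcripts 5.04 ± 0.54 times. The latter ratio rests largely on the short Tap2-203 (376 nt), with 13.0 and 14.6 TPM from 52.6 and 52.3 counts. The longer protein-coding Tap2-201 (3442 nt) had 5.64 and 6.99 TPM. Tap1 and Psmb9, which share 275 bases of promoter window, differed in level with Tap1 at 0.543 ± 0.022 times Psmb9, and at 1.36 ± 0.22 times over protein-coding transcripts. Their exons overlap on opposite strands and the strand setting of the counting is unknown, so both levels and their ratio carry that uncertainty.

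Tapbp encodes tapasin, which bridges TAP and class I molecules and edits the bound peptide. It had 286.8 and 287.5 TPM in technical replicates 1 and 2, the closest pair of values among the 10 genes. Tapbpl, which encodes the tapasin homologue TAPBPR, averaged 64.1 TPM, and Tapbp was 4.48 ± 0.19 times as high. The other partners in the loading complex were all detected, with Pdia3 (ERp57) at 949.7 TPM, Calr (calreticulin) at 201.9 TPM and Canx (calnexin, which holds new class I chains before loading) at 141.3 TPM. The class I chains themselves were higher than any of the 10 genes, with B2m (beta2-microglobulin) at 6444 TPM, H2-K1 at 4146 TPM and H2-D1 at 3290 TPM. H2-K1 and H2-D1 belong to a family of close copies, so their levels are uncertain.

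Erap1 (ERAAP in the mouse), the aminopeptidase that trims peptides in the endoplasmic reticulum, had 68.3 TPM in technical replicate 1, against 71.7 TPM in technical replicate 2. By gene-level TPM it was the lowest of the 10 genes by mean, and its library range overlapped that of Tap2. In protein-coding transcripts alone Nlrc5 and Tap2 were lower. Its exons overlap those of Cast, on the opposite strand, by 834 nt, and Cast had 153.5 and 155.7 TPM. How strand was treated in counting was not given in the sources used here, so reads of that overlap may be shared between the genes. Of 6 other peptidases that act on such peptides, all were detected, from 2.06 TPM (Thop1) to 101.6 TPM (Tpp2) with a median of 43.7 ± 5.21 TPM. Lnpep (IRAP), which trims peptides in endosomes, averaged 25.3 TPM, and Erap1 was 2.76 ± 0.082 times as high by gene-level TPM. The longest Erap1 transcript, Erap1-201, had 37.6 and 37.8 TPM in technical replicates 1 and 2, and short transcripts held most of the rest.

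Nlrc5 had 141.1 TPM in technical replicate 1, against 134.4 TPM in technical replicate 2, from 4322 and 3850 counts. The genes of its partner factors were all detected, at levels below these gene-level values. The RFX complex had 4.22 TPM (Rfxap), 7.05 TPM (Rfx5) and 53.9 TPM (Rfxank). The NF-Y subunits had 8.43 TPM (Nfya), 59.6 TPM (Nfyb) and 46.2 TPM (Nfyc), and Creb1 had 39.96 TPM. In protein-coding transcripts alone Nlrc5 had 26.1 and 26.8 TPM in technical replicates 1 and 2. That was below the gene levels of Rfxank, Nfyb, Nfyc and Creb1 and above those of Rfxap, Rfx5 and Nfya. The partner genes were not split by transcript type, so these are unlike measures and do not rank Nlrc5 among them. Ciita, the homologue that drives class II genes in antigen-presenting cells, was below the detection threshold at 0.64 and 0.47 TPM in technical replicates 1 and 2.

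Of the interferon-gamma pathway genes reported here, 8 of 8 were detected with a median of 107.0 ± 8.39 TPM. The receptor chains had 220.1 TPM (Ifngr1) and 22.5 TPM (Ifngr2), and the kinases 287.4 TPM (Jak1) and 20.1 TPM (Jak2). Irf1, which binds interferon response elements, had 217.7 TPM, Irf2 had 191.6 TPM and Irf8 had 12.4 TPM. Socs1, a feedback inhibitor of the kinases, was the lowest at 3.52 TPM.

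**Figure D4:**
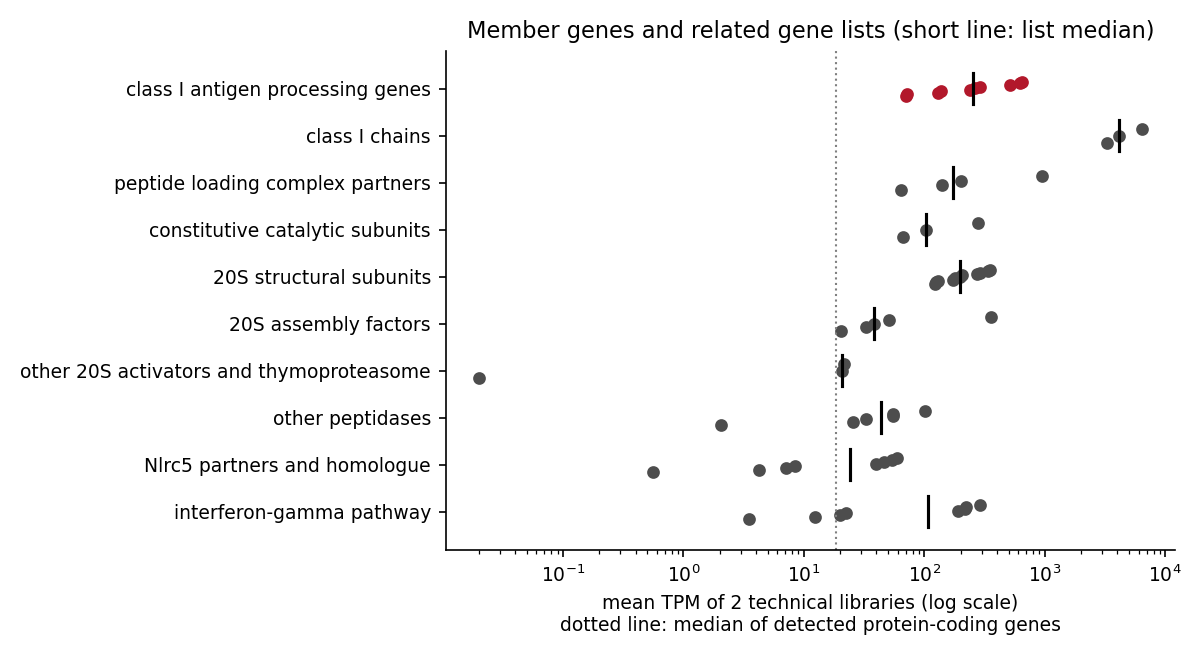
Mean TPM of 2 technical libraries (x axis, log scale) of each gene (points) in the list of the 10 genes (red, top row) and in related lists (grey), with a short vertical line at each list's median and a dotted line at 18.3 TPM, the median of detected protein-coding genes. The 10 genes all lie right of the dotted line, the class I chains lie at 3290 TPM and above, and the lists of the Nlrc5 partners, of the interferon-gamma pathway and of other peptidases have members on both sides of the line.

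In the order of levels, Psmb8 and Psme2 were followed by Psme1 (512.3 ± 22.1 TPM), Tapbp (287.2 ± 0.54 TPM), Psmb10 (264.9 ± 13.5 TPM), Psmb9 (241.5 ± 5.72 TPM), Nlrc5 (137.7 ± 4.72 TPM), Tap1 (130.9 ± 2.27 TPM), Tap2 (71.6 ± 2.26 TPM) and Erap1. Psmb8 and Psme2, and likewise Tap2 and Erap1, overlapped between the libraries. The other neighbours did not, but the authors' credibility bounds of TPM also overlapped for Tapbp and Psmb10, for Psmb10 and Psmb9, and for Nlrc5 and Tap1. Those bounds surround the posterior mean TPM, which lay below the TPM listed here. For Psmb8 in technical replicate 1 they were 542.2 to 571.1, around a posterior mean of 556.7, against 622.3 TPM. The breaks in the order that held by both measures lay between Psme2 and Psme1, between Psme1 and Tapbp, between Psmb9 and Nlrc5, and between Tap1 and Tap2. This order is of gene-level TPM. In protein-coding transcripts alone, Psme1 (405.3 TPM), Psme2 (397.2 TPM) and Psmb8 (379.9 TPM) led by mean. Tap1 (100.6 TPM) then lay above Psmb9 (74.8 TPM), and Erap1 (68.5 TPM) above Nlrc5 (26.4 TPM) and Tap2 (20.1 TPM). Psme1 stayed above Tapbp (279.9 TPM), Psmb9 above Nlrc5 and Tap1 above Tap2.

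The reads of most of these genes were divided between annotated transcripts of several types. A retained-intron transcript keeps an intron and is not annotated with a protein, and a nonsense-mediated decay transcript carries an early stop. Over the 10 genes the median share of TPM in protein-coding transcripts was 61.1%, against 76.3% over 8396 detected protein-coding genes with more than 1 transcript type. In Erap1 and Tapbp nearly all of it was protein coding, 97.9% ± 0.39 and 97.5% ± 0.39. In Psme1 it was 79.1% ± 0.20, in Tap1 76.8% ± 1.61, in Psme2 63.9% ± 2.72 and in Psmb8 58.3% ± 2.32. In the remaining 4 genes protein-coding transcripts took the smaller part: 39.0% ± 2.87 in Psmb10, 30.9% ± 4.30 in Psmb9, 28.0% ± 2.03 in Tap2 and 19.2% ± 1.00 in Nlrc5.

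In Tap2 the retained-intron transcript Tap2-202 took 72.0% of the gene's TPM in technical replicate 1 and 66.1% in technical replicate 2, and 84.3% and 80.5% of its estimated counts. The full-length protein-coding transcript Tap2-201 took 8.06% and 9.55% of the TPM. In Psmb9 the leading transcript, Psmb9-207, was of the nonsense-mediated decay type, with 44.6% and 46.7% of the TPM. In Psmb8 the protein-coding Psmb8-203 led by TPM with 55.1% and 53.8%, while the retained-intron Psmb8-205 led by estimated counts with 50.3% and 48.0%.

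Nlrc5 shows how far the unit matters. The retained-intron transcript Nlrc5-203 (1727 nt) took 61.1% and 63.2% of its TPM in technical replicates 1 and 2. The protein-coding transcript Nlrc5-207 (7578 nt) took 16.9% and 19.0% of the TPM but 51.6% and 54.8% of the estimated counts. The summed protein-coding share of Nlrc5 was 19.2% by TPM and 55.4% by counts, so that by counts 3 of the 10 genes (Tap2, Psmb9 and Psmb8) had the smaller part in protein-coding transcripts. The leading transcript was protein coding in 7 of the 10 genes by TPM and in 7 by counts, with Nlrc5 and Psmb8 changing places. Retained introns and unspliced RNA cannot be told apart in these tables.

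**Figure D5:**
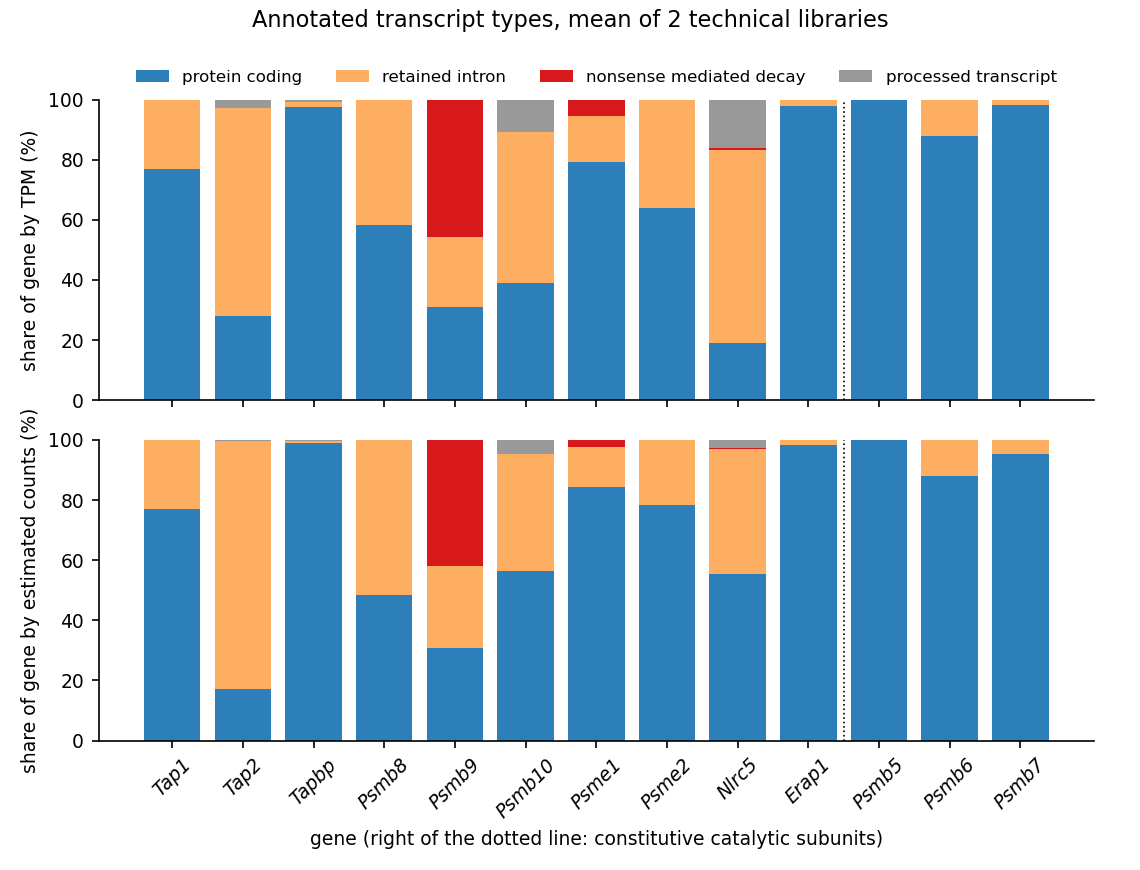
Share (y axis, percent) of each gene's TPM (upper panel) and of its estimated counts (lower panel) in the annotated transcript types, as stacked bars of the mean over 2 technical libraries, for the 10 genes and, right of the dotted line, the 3 constitutive catalytic subunits. The protein-coding part (blue) is nearly the whole bar in Tapbp and Erap1 and 28.0% in the upper bar of Tap2, and the blue part of Nlrc5 is 19.2% in the upper panel and 55.4% in the lower.

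The technical libraries were compared to show how closely the levels repeat. An exact binomial test (two-sided) was run for each gene on rounded counts. With Benjamini-Hochberg adjustment over all 17323 genes tested, it called 19.1% of them different between the libraries at 0.05, 9.63% higher and 9.44% lower in technical replicate 1. It called 3 of the 10 genes. Psme2 (adjusted p = 0.00503) and Psmb10 (adjusted p = 0.0153) were higher in technical replicate 1, with log2 count ratios of 0.11 and 0.12. Psmb8 (adjusted p = 0.00497) was lower in technical replicate 1, with a log2 count ratio of -0.08. The other 7 genes had adjusted p values from 0.0924 (Tap1) to 0.995 (Tap2), and 5 of the 10 had an unadjusted p under 0.05. Among 1772 genes in the same range of TPM 26.5% were called, so a count of 3 in 10 lies near what genes of this depth gave.

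Among the related lists the same test called 0 of 3 constitutive catalytic subunits, 0 of 5 assembly factors and 2 of 11 structural subunits (1 higher and 1 lower in technical replicate 1). Of the other 20S activators it called 1 of 2, Psme3, lower in technical replicate 1 (log2 count ratio -0.33, adjusted p = 0.00065). It did not call Psme2b. It called 3 of 4 loading complex partners (2 higher and 1 lower), 3 of 6 other peptidases (1 higher and 2 lower), 1 of 8 Nlrc5 partners and homologue (lower) and 2 of 8 interferon-gamma pathway genes (both lower). All 3 class I chains were called lower in technical replicate 1. Their counts are the deepest here, B2m with 63984 in technical replicate 1 and 58215 in technical replicate 2.

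The binomial test takes the sampling of reads as the only difference between libraries. With the common dispersion that edgeR estimated over all genes, its exact test called 1.8% of genes and 0 of the 10, and 0 of them had an unadjusted p under 0.05. That dispersion was estimated from these same 2 libraries taken as 1 group, so the difference under test entered it. A lack of calls by this test therefore does not show that the libraries are alike. In the smaller gene table the binomial test called 0 of the 10, and there the number of genes called was 725 of 11019. The sizes were small throughout: the median absolute log2 TPM ratio was 0.07 over the 10 genes, 0.07 over the genes in their range and 0.15 over all detected genes. By TPM, 4 of the 10 genes were higher and 6 lower in technical replicate 1. For Nlrc5 the direction depended on the unit, with a log2 ratio of 0.07 by TPM and -0.01 by counts.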

How the data were processed

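Polyadenylated RNA of 1 biological replicate was sequenced as 2 technical libraries, numbered as in the labels. The larger gene table and the transcript table hold estimated counts, posterior mean counts and TPM, which the authors deposited on mm10 with GENCODE M21, per the text deposited with each library. TPM credibility bounds were deposited beside them and recorded as signal values, since their sum is not fixed. The percent of a gene's TPM in each transcript was deposited by the authors too, and shares were computed here from TPM and counts. The smaller gene table holds counts in whole numbers, deposited by the authors for GENCODE M4 genes after alignment to the genome, per that same text. Quantifier, aligner and strand setting are not given in the sources used here. The effective length was 49 nt below the length for 99.91% of entries, which set the 50-nt stretches compared. Of the non-zero estimated counts, 59.8% and 59.3% were whole (tolerance 0.005) in technical replicates 1 and 2; the others were divided between genes or transcripts.

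Entries that name no gene (0.235% and 0.221% of estimated counts) were left out of library sizes and tests. Estimated counts were rounded for the exact binomial test (SciPy 1.17.1), with at least 10 counts summed and TMM library sizes from edgeR 4.0.16. edgeR's quasi-likelihood test has no residual degrees of freedom with 1 library a side. The p-values compare these libraries and measure technical spread only. The intervals and tests take reads without molecular identifiers as independent. Log2 TPM ratios used a pseudocount of 1 TPM. The binomial script was tested on simulated counts. The smaller tables held 3581589 and 3271045 counts in technical replicates 1 and 2. Promoter sequences came from RefSeq (GRCm38.p6). The text names all 10 genes, and from the lists of related genes the direct partners and each list's highest and lowest gene. The 10 genes and all lists were chosen with earlier results of these data known. An item of the interferon-gamma list is not reported here. Alternatives covered detection thresholds, library scaling (DESeq2 1.42.0 size factors, total counts), the filter, the posterior means, the smaller table and each library left out.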

Additional observations from a re-analysis of the deposited data

How the results depend on the processing

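All 10 genes were detected at 1, 5 and 10 TPM, with posterior mean TPM and in each library alone. Their median of 253.2 TPM was 225.3 TPM with posterior mean TPM, and 246.4 to 260.0 TPM with 1 library left out. The 3 calls between the technical libraries were the same genes with total counts, DESeq2 size factors, no filter or posterior mean counts. They were 0 with the smaller gene table and 0 with the edgeR common dispersion; the cause was not tested for the smaller table, and the edgeR test allows more spread by construction. The number of genes called was 3305 in the main test, 725 with the smaller table and 311 with edgeR.

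The ratio of Psmb8 to Psmb5 was 6.34, and 6.37 with posterior mean TPM, 7.21 with estimated counts, 3.70 with protein-coding transcripts, 6.40 with the smaller table and 6.32 to 6.36 with 1 library left out. The ratio of Psmb9 to Psmb6 was 0.874, and in the same order 0.878, 1.24, 0.308, 1.02 and 0.871 to 0.877. The ratio of Psmb10 to Psmb7 was 3.997, and 3.05 with estimated counts, 1.59 with protein-coding transcripts, 2.70 with the smaller table and 3.87 to 4.13 with 1 library left out. The log2 ratio of Nlrc5 between the libraries was 0.07 by TPM and -0.011 by library-scaled counts; those of the other 9 genes kept their sign. The leading transcript's share moved by more than 1 SD in 10 of 10 genes when taken from counts; leaving out 1 of 2 libraries cannot move a mean by 1 SD, so those values show only the spread. The shares rest on how reads were divided between transcripts, and an SD over 2 libraries can be smaller than counting error. No paired analysis was possible because there was 1 group.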
